A study of Mus musculus with 3 samples.

Results

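The platelet-derived growth factor (PDGF) family was examined through its 6 genes, the ligands *Pdgfa*, *Pdgfb*, *Pdgfc* and *Pdgfd* and the receptors *Pdgfra* and *Pdgfrb*, among the 27998 genes of single-cell RNA-seq libraries from embryonic mouse thymus. The genes were chosen by name, as all ligands and receptors of the family, and their unique molecular identifiers (UMIs, counts of distinct RNA molecules) were summed by cell class and genotype. Thymic lobes of C57BL/6 embryos at E13-13.5 were dissociated with trypsin, and 1 3' library was made for each of 3 genotypes. The control was wild type. Tbx1neo2/neo2 embryos carried on both alleles a neomycin cassette inserted in *Tbx1*, a transcription factor gene within the region deleted in 22q11.2 deletion syndrome, which makes a hypomorph. Foxn11089/1089 embryos carried on both alleles a small deletion in *Foxn1*, the transcription factor gene of thymic epithelial differentiation, and are another model of a small thymus. How many embryos went into each library was not given in the sources used here.

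PDGF ligands are secreted dimers that bind receptor tyrosine kinases. PDGF-A acts through *Pdgfra*, PDGF-B through both receptors, PDGF-C mainly through *Pdgfra* and PDGF-D mainly through *Pdgfrb*. In many organs the epithelium supplies *Pdgfa* to *Pdgfra*-positive mesenchyme, while endothelial cells supply *Pdgfb* to *Pdgfrb*-positive pericytes, the mural cells that coat small vessels. PDGF-C and PDGF-D are secreted in a latent form and are activated by proteases. In the fetal thymus, *Pdgfra* marks the neural crest-derived capsule mesenchyme and *Pdgfrb* the perivascular cells.

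Each genotype had a single library, so genotypes were compared without replicates and without a test. Each interval in this text is a 95% interval (Poisson for levels, conditional binomial for ratios, Clopper-Pearson for shares of cells) and covers counting error only. Levels are UMIs scaled to a class total of 1e+06 UMIs (CPM), and since 3' libraries capture genes unequally, levels are compared between classes and libraries and not between genes. *Tbx1* gave 114 UMIs over all kept control cells, 656 in the library labelled Tbx1neo2/neo2 and 1102 in the Foxn11089/1089 library, or 1.39, 4.81 and 5.43 CPM. The library labelled Tbx1neo2/neo2 was therefore not lower in its targeted gene over all kept cells. This level did not bear out its label as a hypomorph. The libraries held different mixtures of cells, among them 6, 91 and 76 skeletal muscle-like and 17, 104 and 49 cartilage-like cells. *Tbx1* was not compared within a class, so the sum over all cells does not decide the label. *Foxn1* gave 38.4, 34.6 and 76.5 CPM, and since a small deletion need not lower the RNA, this level does not check the Foxn11089/1089 label. The summed level of the cortical epithelial markers *Psmb11*, *Prss16*, *Ccl25* and *Ly75* in epithelial cells was 1265 CPM in the control, 1079 CPM in the library labelled Tbx1neo2/neo2 and 112 CPM in the Foxn11089/1089 library.

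The libraries held 82936619, 137498422 and 204655055 UMIs, and 5932, 5516 and 11772 cells were kept. Median depth ran from 13410 to 20732.5 UMIs per kept cell, and mitochondrial RNA had a median of 2.59% of UMIs in the control against 5.80% and 5.03% in the others. Of the kept cells, 314, 236 and 1189 were likely doublets. The libraries shared 17 to 28 cell barcodes pairwise.

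Clusters were named from marker lists that held none of the 6 genes, and a name means only that a cluster was like that cell type. The epithelial-like class held 2032 control cells, 791 cells of the library labelled Tbx1neo2/neo2 and 3588 cells of the Foxn11089/1089 library, and the mesenchymal-like class 1362, 1574 and 3103. The endothelial-like class held 67, 193 and 159 cells and the hematopoietic-like class 1547, 547 and 678. The mural-like class, defined by *Rgs5* with *Acta2*, held 17, 195 and 41 cells, so most of it came from the library labelled Tbx1neo2/neo2 and its control level rested on 17 cells. All 6 epithelial, 8 endothelial, 9 mesenchymal and 5 hematopoietic defining markers were detected in their own class in every library, and 9 of the 10 mural markers in the control mural cells. Red blood cells were set beside the other classes as a reference for RNA that leaks between droplets. Hemoglobin made up 88.0%, 87.5% and 87.9% of their UMIs, which leaves few UMIs for other genes at a fixed depth. Their shares of cells with a UMI are thus lowered by construction and give no floor for leaked RNA.

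*Pdgfa*, the epithelial ligand for *Pdgfra*, had most of its UMIs in epithelial cells, a share that also follows the number and depth of these cells. Epithelial cells held 90.6% of its UMIs in the control, 68.4% in the library labelled Tbx1neo2/neo2 and 84.1% in the Foxn11089/1089 library. Its level in epithelial cells was 516 CPM in the control (509 to 524, 17360 UMIs), 268 CPM in the library labelled Tbx1neo2/neo2 (263 to 273, 11200 UMIs) and 295 CPM in the Foxn11089/1089 library (291 to 298, 26693 UMIs). Both other libraries lay below the control, and none of the intervals overlapped. The log2 ratio to control was -0.95 (-0.98 to -0.91) in the library labelled Tbx1neo2/neo2 and -0.81 (-0.84 to -0.78) in the Foxn11089/1089 library. The median gene of the epithelial class had a log2 ratio of 0.42 and 0.30, and relative to it *Pdgfa* was at -1.36 (-1.40 to -1.33) and -1.11 (-1.14 to -1.09). After each cell was thinned to 2000 UMIs, 59.5% of control epithelial cells had a *Pdgfa* UMI (57.3 to 61.6%), against 37.6% (34.2 to 41.1%) and 42.4% (40.7 to 44.0%). Without thinning nearly all cells had one (96.3%, 95.8% and 95.2%), and the median cell had 16081.5, 46070 and 21332.5 UMIs. Red blood cells, which should lack the gene, gave thinned shares of 0.305%, 0% and 0.6%. Their medians were 8082, 18618 and 12438 UMIs per cell, most of which were hemoglobin.

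**Figure D1:**
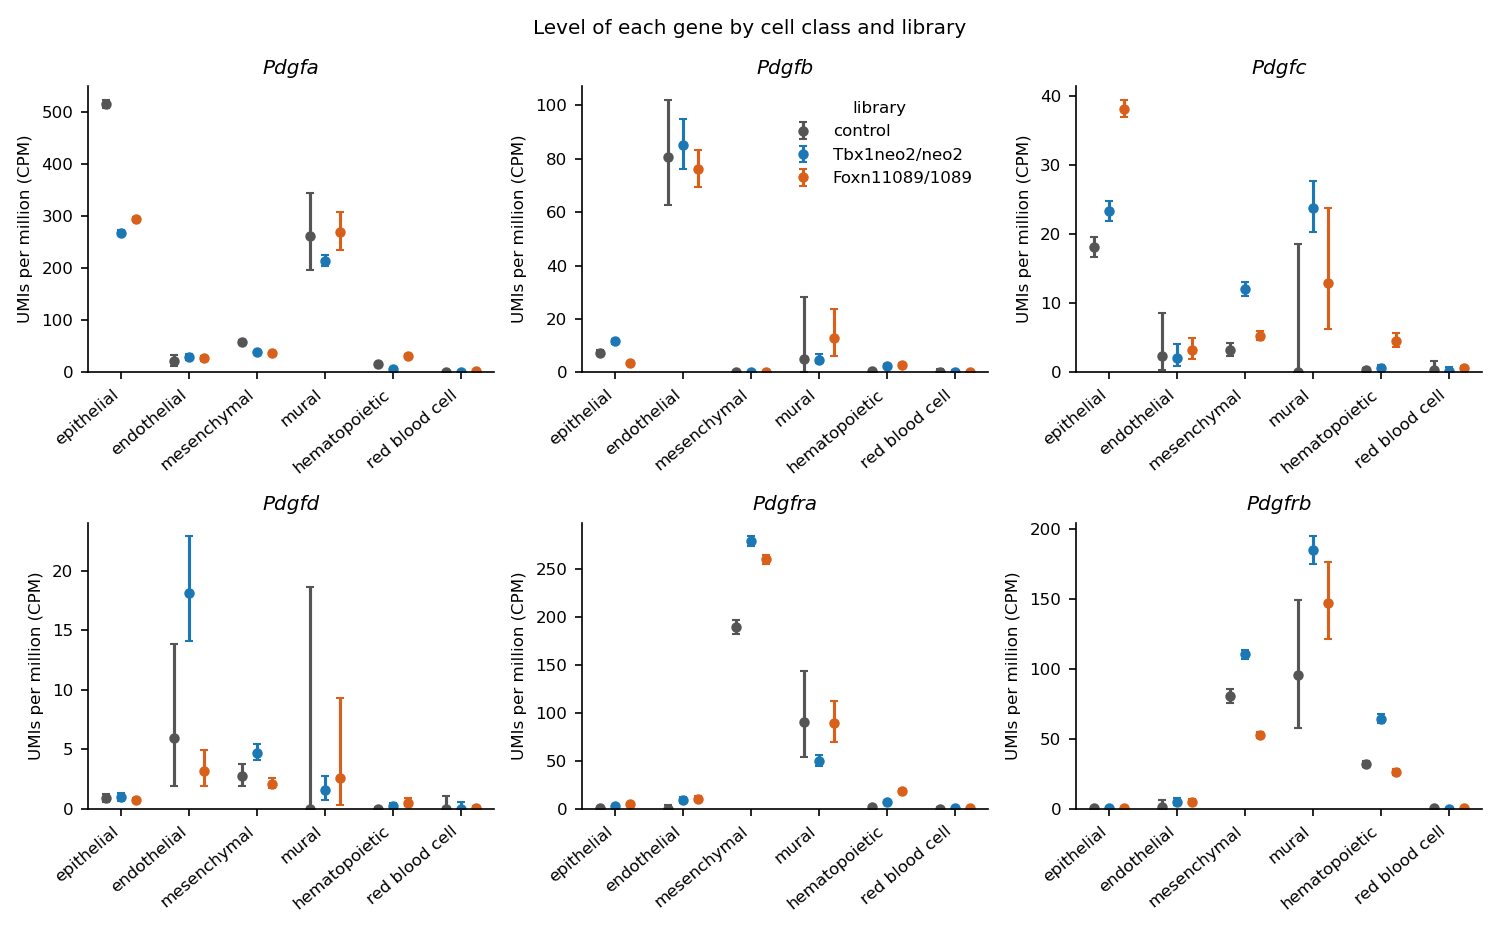
Level of each of the 6 genes in CPM (y axis) by cell class (x axis) in the 3 libraries, with points for the level and bars for the 95% Poisson interval. Of the classes plotted, *Pdgfa* stood highest in epithelial cells, at 516, 268 and 295 CPM, *Pdgfb* in endothelial cells, *Pdgfra* in mesenchymal cells and *Pdgfrb* in mural cells.

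The lower *Pdgfa* was seen in each of the 4 epithelial sub-clusters that every library filled. These sub-clusters were drawn after the libraries had been integrated. Without integration, a cluster led by *Psmb11* held 1527, 11 and 7 cells and one led by *Prss16* held 97, 492 and 9. A cluster led by *Krt5* and *Krt17* was shared, with 356, 88 and 750 cells. Cells of different libraries in 1 sub-cluster are therefore not always of a like state. In the sub-cluster led by *Ccl25* and *Psmb11*, genes of cortical epithelium, *Pdgfa* was at 495 CPM in the control, 319 CPM in the library labelled Tbx1neo2/neo2 and 351 CPM in the Foxn11089/1089 library. In the *Krt5* and *Krt17* sub-cluster, keratins of medullary epithelium, it was at 322, 182 and 190 CPM. In the cycling *Six2* sub-cluster it was at 573, 335 and 325 CPM, and in the *Slfn9* and *Epha5* sub-cluster, which had *Pdgfa* among its leading genes, at 610, 380 and 354 CPM. The log2 ratios over the 4 sub-clusters ran from -0.82 to -0.63 in the library labelled Tbx1neo2/neo2 and from -0.82 to -0.50 in the Foxn11089/1089 library. Of these 4, the *Krt5* and *Krt17* sub-cluster was the lowest in every library. The *Slfn9* and *Epha5* sub-cluster was the highest, though in the Foxn11089/1089 library its interval overlapped with that of the *Ccl25* and *Psmb11* sub-cluster.

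A pair of sub-clusters was filled mainly by 1 library. The sub-cluster with parathyroid markers held 35, 5 and 391 cells, and its *Pdgfa* was at 375 CPM in the control and 254 CPM in the Foxn11089/1089 library. The sub-cluster with thyroid markers held 4, 103 and 6 cells, with *Pdgfa* at 72.8 CPM in the library labelled Tbx1neo2/neo2. Without both sub-clusters, an alternative chosen after seeing the data, the log2 ratio of *Pdgfa* was -0.77 in the library labelled Tbx1neo2/neo2 and -0.78 in the Foxn11089/1089 library.

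Of the other classes plotted by level, *Pdgfa* was highest in mural cells, at 262 CPM in the control (196 to 344, 52 UMIs), 214 CPM in the library labelled Tbx1neo2/neo2 and 270 CPM in the Foxn11089/1089 library. Epithelial and mural levels were apart in every library except the Foxn11089/1089 library. The mural log2 ratios were -0.29 (-0.69 to 0.13) and 0.04 (-0.40 to 0.51), and both intervals included 0. Relative to the median gene they were -0.53 (-0.93 to -0.11) and -0.16 (-0.60 to 0.31). Whether the first lay below the control therefore depended on the scaling. The mesenchymal level was 58.2 CPM in the control against 39.5 and 37.4 CPM, with log2 ratios of -0.56 (-0.68 to -0.44) and -0.64 (-0.76 to -0.51). Endothelial cells had 21.3, 28.5 and 26.5 CPM, and the interval of both ratios included 0. In hematopoietic cells *Pdgfa* was at 15.3 CPM in the control, 6.21 CPM in the library labelled Tbx1neo2/neo2 and 31.9 CPM in the Foxn11089/1089 library, so the other libraries lay on opposite sides of the control. The hematopoietic sub-clusters did not all follow the class. *Pdgfa* was at 18.9, 1.64 and 18.5 CPM in the sub-cluster led by *Plac8* and *Cd48*, from 316, 20 and 175 UMIs, at 4.94, 8.24 and 12.1 CPM in the *Gzma* and *Cd3g* sub-cluster and at 65.0, 15.5 and 102 CPM in the *C1qa* sub-cluster. The low value of the library labelled Tbx1neo2/neo2 was thus seen in the first and the last of these and not in the *Gzma* and *Cd3g* sub-cluster, where its log2 ratio was 0.74, or 0.38 (-0.13 to 0.91) relative to the median gene. Among the smallest classes, skeletal muscle-like cells of the library labelled Tbx1neo2/neo2 had 345 CPM, above the epithelial level of that library.

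**Figure D2:**
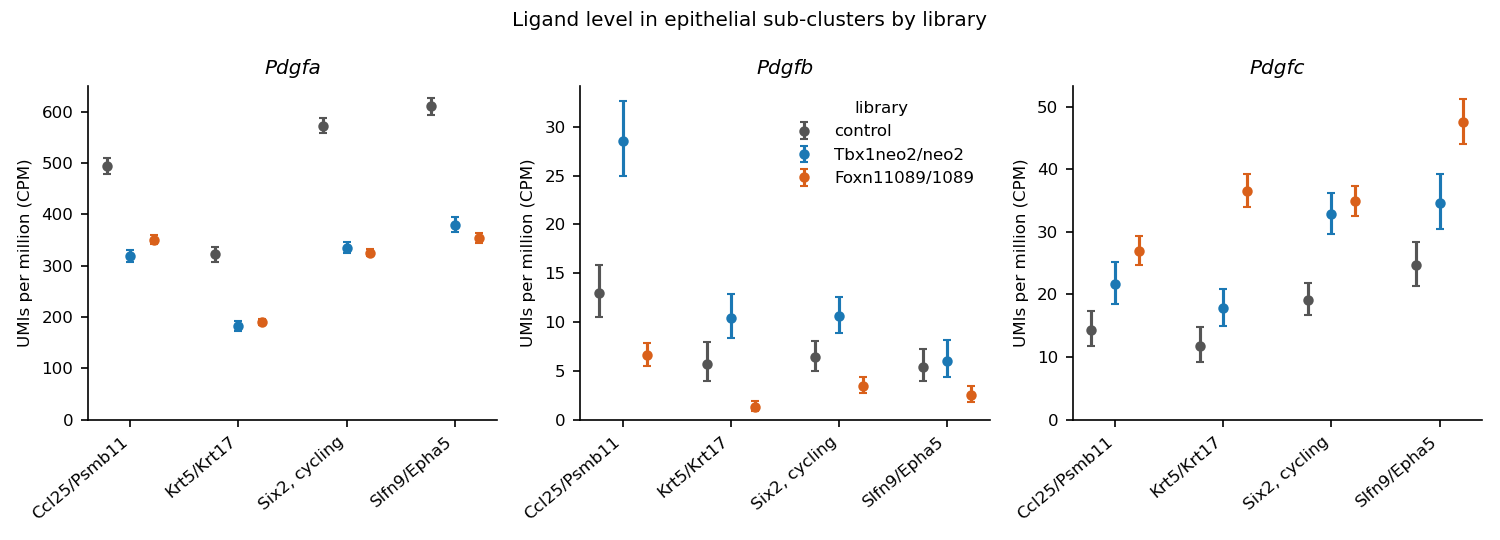
Levels of *Pdgfa*, *Pdgfb* and *Pdgfc* in CPM (y axis) in the 4 epithelial sub-clusters that all 3 libraries filled (x axis, named by leading genes), with 95% Poisson intervals. *Pdgfa* was lower in both other libraries in all 4, and *Pdgfc* was highest in the Foxn11089/1089 library in all 4.

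*Pdgfb*, the ligand by which endothelial cells recruit pericytes, had its highest level in endothelial cells in every library. It was at 80.6 CPM in the control (62.6 to 102, 68 UMIs), 85.1 CPM in the library labelled Tbx1neo2/neo2 (76.1 to 94.8, 328 UMIs) and 76.1 CPM in the Foxn11089/1089 library (69.3 to 83.4, 456 UMIs). The 3 intervals overlapped. The log2 ratios were 0.08 (-0.30 to 0.48) and -0.08 (-0.45 to 0.31), or -0.32 (-0.70 to 0.08) and -0.31 (-0.68 to 0.08) relative to the median gene. A change of up to the ends of these intervals could not be seen at this depth. Taken as a mean over cells, in which shallow cells weigh as much as deep ones, the second ratio before centring was 0.49 and thus lay beyond its interval. The thinned share of endothelial cells with a *Pdgfb* UMI was 10.2% (3.40 to 22.2%), 12.6% (7.07 to 20.3%) and 12.6% (7.38 to 19.7%). Thinned red blood cells gave 0% in each library, a share lowered by construction. Without thinning the shares of 46.3%, 37.8% and 65.4% followed the depth of the cells, whose medians were 14158, 4451 and 26929 UMIs. Endothelial cells held 19.9% of the control's *Pdgfb* UMIs, since they were few, while epithelial cells held 72.8% at a lower level per cell.

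In epithelial cells *Pdgfb* was at 7.40 CPM in the control (6.51 to 8.38), 11.5 CPM in the library labelled Tbx1neo2/neo2 (10.5 to 12.6) and 3.47 CPM in the Foxn11089/1089 library (3.09 to 3.87), and the intervals did not overlap. The *Ccl25* and *Psmb11* sub-cluster had the most, at 13, 28.6 and 6.56 CPM, with a log2 ratio of 1.14 in the library labelled Tbx1neo2/neo2 and -0.98 in the Foxn11089/1089 library. In the *Krt5* and *Krt17* sub-cluster the levels were 5.72, 10.4 and 1.33 CPM. The Foxn11089/1089 library was the lowest in each of the 4 shared epithelial sub-clusters. Over the class, the log2 ratio relative to the median gene was 0.23 (0.00 to 0.45) in the library labelled Tbx1neo2/neo2 and -1.40 (-1.64 to -1.15) in the Foxn11089/1089 library. Mesenchymal cells had only 1, 10 and 8 *Pdgfb* UMIs, 0.0727 to 0.245 CPM.

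In hematopoietic cells *Pdgfb* was low, at 0.633, 2.31 and 2.72 CPM from 18, 59 and 48 UMIs. It was highest in the *C1qa* sub-cluster, whose leading genes are those of macrophages, at 13, 19 and 14.8 CPM, with log2 ratios of 0.54 and 0.19 whose intervals, relative to the median gene, included 0. That sub-cluster held 107 of the 1547 hematopoietic cells in the control, 155 of 547 in the library labelled Tbx1neo2/neo2 and 215 of 678 in the Foxn11089/1089 library. The summed macrophage markers of hematopoietic cells were at 211, 638 and 1004 CPM, and their part in the class ratio was not tested.

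*Pdgfc*, a ligand mainly of *Pdgfra*, was at 18.0 CPM in control epithelial cells (16.6 to 19.5, 607 UMIs), 23.3 CPM in the library labelled Tbx1neo2/neo2 (21.8 to 24.8, 974 UMIs) and 38.1 CPM in the Foxn11089/1089 library (36.9 to 39.4, 3454 UMIs). The Foxn11089/1089 library was the highest, with a log2 ratio of 1.08 (0.95 to 1.21), or 0.77 (0.65 to 0.90) relative to the median gene. In the library labelled Tbx1neo2/neo2 the log2 ratio was 0.37 (0.22 to 0.52) before and -0.05 (-0.20 to 0.10) after centring on the median gene, so its direction depended on the scaling. The same order held in the *Krt5* and *Krt17* sub-cluster, at 11.8, 17.7 and 36.6 CPM, and in the *Slfn9* and *Epha5* sub-cluster, at 24.6, 34.6 and 47.5 CPM. The sub-cluster with parathyroid markers had 54.2 CPM in the Foxn11089/1089 library. In thinned epithelial cells a *Pdgfc* UMI was found in 2.78%, 3.61% and 6.04%. Red blood cells gave 0%, 0% and 0.1%, shares lowered by construction.

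Mesenchymal *Pdgfc* was lower than epithelial *Pdgfc* in every library but differed between genotypes, at 3.20 CPM in the control (2.32 to 4.29, 44 UMIs), 12 CPM in the library labelled Tbx1neo2/neo2 (11 to 13.1, 490 UMIs) and 5.30 CPM in the Foxn11089/1089 library (4.66 to 5.99, 250 UMIs). The log2 ratio relative to the median gene was 1.5 (1.05 to 1.98) and 0.53 (0.06 to 1.02). In the library labelled Tbx1neo2/neo2 it was at 16.5 CPM in the cycling sub-cluster against 2.66 CPM in the control, and at 15.1 against 4.20 CPM in the *Ibsp* and *Ogn* sub-cluster. In the *Kcnj8* and *Abcc9* sub-cluster it was at 1.19 against 2.75 CPM, from 5 and 10 UMIs. Cartilage-like cells had 77.5, 88.6 and 110 CPM of *Pdgfc*, in 17, 104 and 49 cells. The cartilage markers summed to 71.1, 250 and 112 CPM in mesenchymal cells, and their part in the *Pdgfc* level was not tested. Mural cells had 0 *Pdgfc* UMIs in the control, where 3 UMIs would be 15.1 CPM, 23.7 CPM in the library labelled Tbx1neo2/neo2 and 12.9 CPM in the Foxn11089/1089 library.

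*Pdgfd*, a ligand of *Pdgfrb*, was the least counted of the 6 genes, with 75, 331 and 208 UMIs over all kept cells. Endothelial cells had 5.93 CPM in the control (1.92 to 13.8, 5 UMIs), 18.2 CPM in the library labelled Tbx1neo2/neo2 (14.2 to 22.9, 70 UMIs) and 3.17 CPM in the Foxn11089/1089 library (1.91 to 4.95, 19 UMIs). Only the library labelled Tbx1neo2/neo2 stood above the others, and its log2 ratio to the 5 control UMIs was 1.61 (0.32 to 3.28), or 1.22 (-0.07 to 2.88) relative to the median gene. Without integration, an endothelial cluster led by *Fbln5* and *Gja4* held 0, 54 and 3 cells, so the endothelial mixtures differed. The part of these cells in the endothelial *Pdgfd* and *Pdgfb* levels was not tested. Mesenchymal cells had 2.76, 4.73 and 2.12 CPM and held 50.7%, 58.3% and 48.1% of each library's *Pdgfd* UMIs. Endothelial and mesenchymal levels did not differ beyond counting error in the control or in the Foxn11089/1089 library. Within the mesenchyme the *Upk3b* and *Wt1* sub-cluster, genes of the mesothelium, was at 14.4, 11.5 and 10.2 CPM from 5, 14 and 13 UMIs.

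*Pdgfra*, the receptor of the capsule mesenchyme, was a mesenchymal gene in every library, with 92.7%, 91.9% and 86.5% of its UMIs in mesenchymal cells. Its level there was 189 CPM in the control (182 to 197, 2603 UMIs), 279 CPM in the library labelled Tbx1neo2/neo2 (274 to 284, 11377 UMIs) and 260 CPM in the Foxn11089/1089 library (255 to 265, 12269 UMIs). Both other libraries lay above the control without overlap of the intervals. The log2 ratios were 0.56 (0.50 to 0.62) and 0.46 (0.40 to 0.52), but the median gene of the class was itself at 0.41 and 0.20, which left 0.15 (0.09 to 0.21) and 0.26 (0.20 to 0.32), under 1.5-fold. After thinning, 31.2% of control mesenchymal cells had a *Pdgfra* UMI (28.8 to 33.8%), against 39.9% (37.5 to 42.4%) and 38.6% (36.9 to 40.4%). Without thinning the shares were 73.6%, 89.1% and 89.2%, and the cells had medians of 9618.5, 24603 and 13869 UMIs. The thinned share of red blood cells was 0%, 0.28% and 0.15%.

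*Pdgfra* varied within the mesenchyme. The *Sfrp2* and *Igf1* sub-cluster, in whose leading genes *Pdgfra* stood, was the highest at 300, 430 and 350 CPM, and held 42.4%, 32.1% and 40.5% of each library's *Pdgfra* UMIs. The *Ibsp* and *Ogn* sub-cluster, genes of skeletal and connective tissue matrix, had 199, 264 and 293 CPM, and the cycling sub-cluster 156, 232 and 234 CPM. The *Kcnj8* and *Abcc9* sub-cluster, subunits of a potassium channel found in pericytes, had 119, 202 and 157 CPM. Its leading genes also included *Aldh1a2*, *Tcf21* and *Lum*. Of the mural markers it held only *Ndufa4l2*, so it was named mesenchymal and not mural. The *Upk3b* and *Wt1* sub-cluster had 11.5, 19.8 and 15.8 CPM from 4, 24 and 20 UMIs. Both other libraries had higher values than the control in each sub-cluster, though with overlapping intervals in the last, and relative to the median gene the log2 ratios of the 4 larger ones ran from 0.10 to 0.38 in the library labelled Tbx1neo2/neo2 and from 0.05 to 0.39 in the Foxn11089/1089 library.

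**Figure D3:**
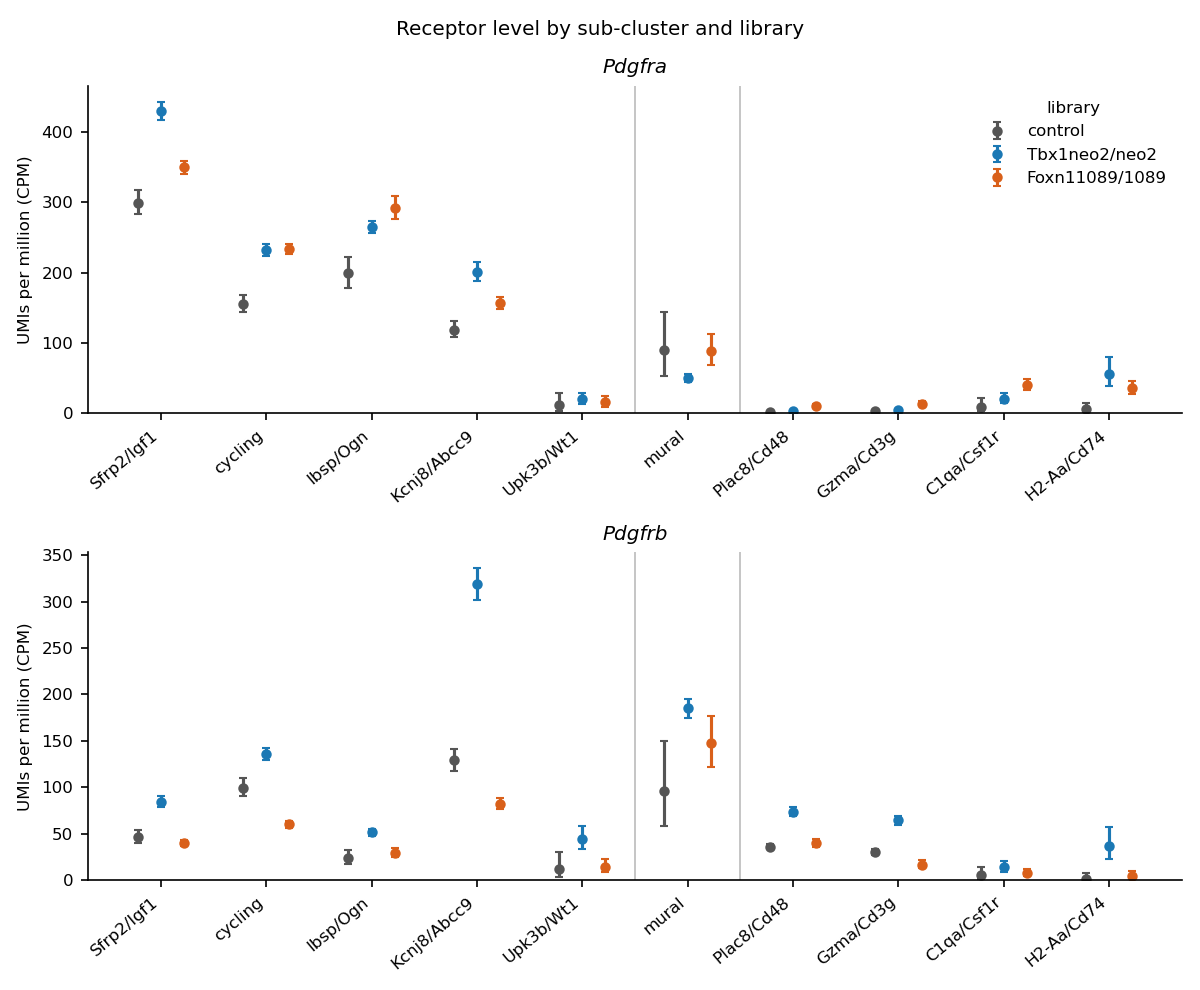
Levels of *Pdgfra* and *Pdgfrb* in CPM (y axis) in mesenchymal sub-clusters, mural cells and hematopoietic sub-clusters (x axis, named by leading genes), with points for the 3 libraries and 95% Poisson intervals. *Pdgfra* was highest in the *Sfrp2*/*Igf1* sub-cluster, and *Pdgfrb* in the *Kcnj8*/*Abcc9* sub-cluster of the library labelled Tbx1neo2/neo2, at 319 CPM.

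Mural cells had less *Pdgfra* than mesenchymal cells in every library, at 90.8 CPM in the control (53.8 to 144, 18 UMIs), 50.1 CPM in the library labelled Tbx1neo2/neo2 (45.1 to 55.6, 357 UMIs) and 89.1 CPM in the Foxn11089/1089 library (69.3 to 113, 69 UMIs). The log2 ratio was -0.86 (-1.54 to -0.09) and -0.03 (-0.79 to 0.81). The first of these turned positive when mural cells were drawn in other ways, to 0.72 from unintegrated clusters and 0.19 from a gate on *Rgs5* and *Acta2* UMIs. The control value rested on 17 cells. *Pdgfra* in epithelial cells was at 1.07, 3.18 and 4.74 CPM, from 36, 133 and 429 UMIs, beside a summed mesenchymal marker level of 63.1, 106 and 149 CPM (9 of 9 detected in each), whose part was not tested. Of the 429 UMIs, 188 lay in the Foxn11089/1089 library's sub-cluster with parathyroid markers, of whose cells 26.9% were likely doublets.

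*Pdgfrb*, the pericyte receptor, had its highest class level in mural cells in each library. It was at 95.9 CPM in the control (57.7 to 150, 19 UMIs), 185 CPM in the library labelled Tbx1neo2/neo2 (175 to 195, 1316 UMIs) and 147 CPM in the Foxn11089/1089 library (121 to 177, 114 UMIs). The control interval overlapped that of the Foxn11089/1089 library and not that of the library labelled Tbx1neo2/neo2. The log2 ratios were 0.95 (0.30 to 1.68) and 0.62 (-0.09 to 1.40), or 0.71 (0.06 to 1.44) and 0.42 (-0.29 to 1.20) relative to the median gene. The second ratio turned negative in a gate on *Rgs5* and *Acta2* UMIs, to -0.21. Thinned to 2000 UMIs, 35.3% of control mural cells had a *Pdgfrb* UMI (14.2 to 61.7%), against 34.4% (27.7 to 41.5%) and 29.3% (16.1 to 45.5%), so the share of mural cells did not differ beyond counting error. Without thinning 70.6%, 94.4% and 90.2% had one, at medians of 11981, 33925 and 17838 UMIs per cell, and red blood cells had thinned shares of 0%, 0% and 0.1%. As class levels, mural and mesenchymal *Pdgfrb* did not differ beyond counting error in the control, while in both other libraries the mural level was higher. The mesenchymal *Kcnj8* and *Abcc9* sub-cluster, given below, stood above mural cells in the library labelled Tbx1neo2/neo2, without overlap of the intervals. In the control these intervals overlapped, and in the Foxn11089/1089 library the sub-cluster lay below mural cells.

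In mesenchymal cells *Pdgfrb* was at 80.7 CPM in the control (76.0 to 85.6, 1111 UMIs), 110 CPM in the library labelled Tbx1neo2/neo2 (107 to 114, 4504 UMIs) and 52.7 CPM in the Foxn11089/1089 library (50.7 to 54.9, 2490 UMIs). The library labelled Tbx1neo2/neo2 lay above the control and the Foxn11089/1089 library below it. The log2 ratio was 0.45 (0.36 to 0.55) in the library labelled Tbx1neo2/neo2, which relative to the median gene was 0.04 (-0.05 to 0.14), and -0.61 (-0.72 to -0.51) in the Foxn11089/1089 library, or -0.81 (-0.92 to -0.71). Both depended on which clusters were called mesenchymal. Under the second naming criterion tried, which moves mesenchymal cells to the mural class, the ratios before centring were 1.13 and 0.11, so the second turned direction. Thinned shares were 13.3% (11.5 to 15.2%), 16.9% (15 to 18.8%) and 9.46% (8.45 to 10.5%), and unthinned shares 45.2%, 68.4% and 45.0%.

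The difference varied in size between the sub-clusters. Relative to the median gene, the log2 ratio over the 4 larger ones ran from 0.04 to 0.92 in the library labelled Tbx1neo2/neo2, so that the class value of 0.04 lay at the low end, and from -0.93 to 0.08 in the Foxn11089/1089 library. In the *Kcnj8* and *Abcc9* sub-cluster *Pdgfrb* was at 129 CPM in the control (118 to 141), 319 CPM in the library labelled Tbx1neo2/neo2 (302 to 336) and 82.3 CPM in the Foxn11089/1089 library (76.4 to 88.6). Its log2 ratio relative to the median gene was 0.92 (0.76 to 1.07) and -0.88 (-1.05 to -0.71), and the thinned share was 20.4%, 45.7% and 13.3% of cells. The sub-cluster held 334, 141 and 556 cells, so it was the smallest in the library with the highest level. Its summed mural markers, a list that includes its own leading gene *Ndufa4l2*, were at 726, 627 and 353 CPM. The cycling sub-cluster had 99.5, 135 and 59.9 CPM, at 0.04 (-0.12 to 0.20) and -0.93 (-1.09 to -0.76) relative to the median gene. The *Sfrp2* and *Igf1* sub-cluster had 46.6, 83.9 and 39.4 CPM, at 0.55 (0.32 to 0.79) and -0.41 (-0.65 to -0.17). The *Ibsp* and *Ogn* sub-cluster had the least of the 4 in the control, with 24.0, 51.3 and 29.3 CPM, at 0.79 (0.33 to 1.28) and 0.08 (-0.44 to 0.63), of which the second interval included 0. The *Upk3b* and *Wt1* sub-cluster had 11.5, 44.5 and 14.2 CPM from 4, 54 and 18 UMIs. The *Ibsp* and *Ogn* sub-cluster held 199 of the 1362 mesenchymal cells in the control, 633 of 1574 in the library labelled Tbx1neo2/neo2 and 365 of 3103 in the Foxn11089/1089 library, so the libraries' mesenchymal levels average over different mixtures of sub-clusters.

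The hematopoietic class held 43.7% of the control's *Pdgfrb* UMIs. Their level was 32.1 CPM in the control (30.01 to 34.2, 912 UMIs), 64.5 CPM in the library labelled Tbx1neo2/neo2 (61.4 to 67.7, 1651 UMIs) and 26.3 CPM in the Foxn11089/1089 library (23.9 to 28.8, 464 UMIs). Most of it lay in 2 hematopoietic sub-clusters, at 35.9, 73.5 and 39.8 CPM in the one led by *Plac8* and *Cd48* and at 29.7, 64.3 and 16.4 CPM in the one led by *Gzma* and *Cd3g*. The *C1qa* sub-cluster had 4.88, 13.8 and 7.22 CPM. The *H2-Aa* and *Cd74* sub-cluster, genes of antigen presentation, had 1.41, 37 and 4.70 CPM from 1, 21 and 8 UMIs, and 29.0% of its 31 cells in the library labelled Tbx1neo2/neo2 were likely doublets. The other 8, 3 and 14 cells of the class were not described separately. In control hematopoietic cells there were 912 *Pdgfrb* UMIs beside 66 of *Pdgfra*, whereas control mesenchymal cells had 1111 beside 2603, so the receptors stood in a different ratio than in the mesenchyme. In the *Plac8* and *Cd48* sub-cluster *Pdgfra* was at 1.31, 3.94 and 10.8 CPM. Thinned, 6.98% of control hematopoietic cells had a *Pdgfrb* UMI (5.72 to 8.41%), against 12.2% (9.36 to 15.6%) and 4.44% (2.87 to 6.54%). No thinned red blood cell of the control had one, but that share is lowered by construction and gives no floor for leaked RNA. Without thinning the shares were 39.4%, 55.6% and 30.1%, at medians of 19635, 49943 and 22650.5 UMIs per cell.

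In the mesenchyme the receptors were mostly found apart at this depth. Of 1335 thinned control mesenchymal cells, 27.0% had *Pdgfra* UMIs only, 9.06% had *Pdgfrb* only, 4.19% had both and 59.7% neither. In the library labelled Tbx1neo2/neo2 the shares were 33.6%, 10.5%, 6.33% and 49.5% of 1547 cells, and in the Foxn11089/1089 library 35.3%, 6.17%, 3.29% and 55.2% of 3097 cells. A cell without a UMI at 2000 UMIs may still express the gene, and at 5000 UMIs per cell the share with both was 13.8%, 20.4% and 13.1%. In the *Kcnj8* and *Abcc9* sub-cluster, cells with *Pdgfrb* only made up 15.6% of control cells (11.9 to 19.97%), 32.9% of cells of the library labelled Tbx1neo2/neo2 (25.2 to 41.3%) and 10.4% of Foxn11089/1089 cells (8.02 to 13.3%), and cells with both 4.80%, 12.9% and 2.88%. In mural cells *Pdgfrb* only was found in 35.3%, 31.3% and 22.0%, and *Pdgfra* only in 17.6%, 4.62% and 9.76%, of 17, 195 and 41 cells.

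**Figure D4:**
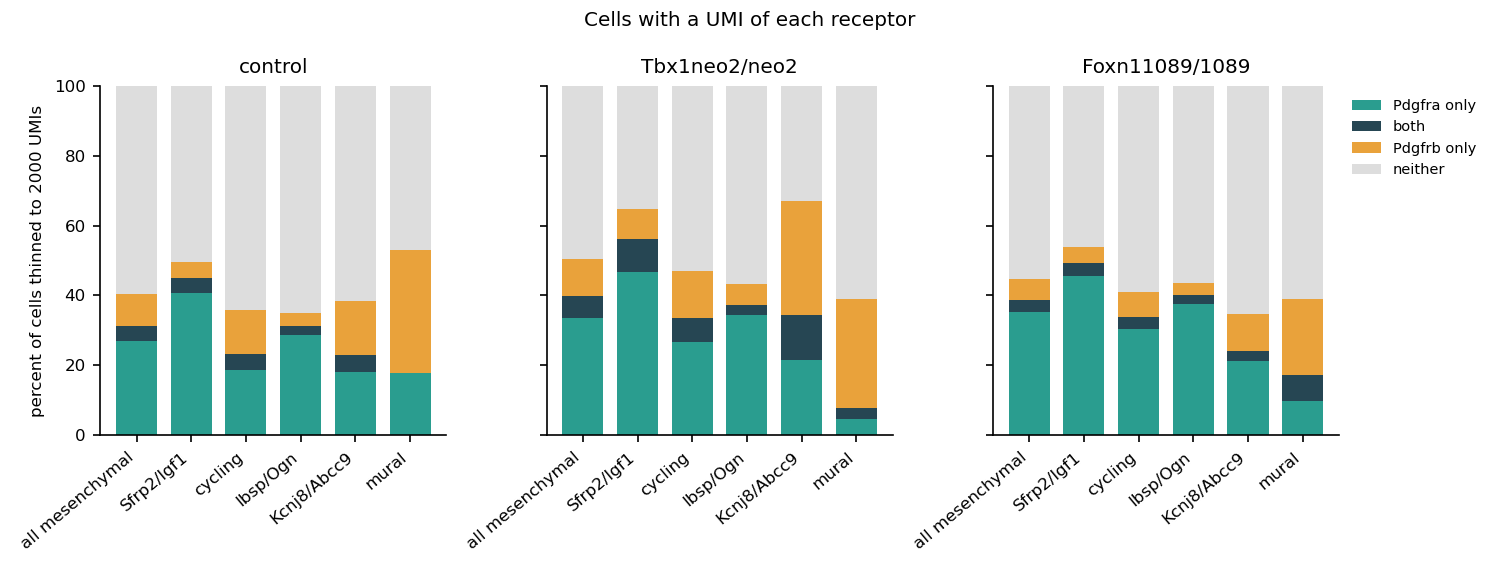
Share of cells (y axis, percent) with UMIs of *Pdgfra* only, of both receptors, of *Pdgfrb* only or of neither after thinning to 2000 UMIs per cell, by mesenchymal group and mural cells (x axis) in the 3 libraries. The *Kcnj8*/*Abcc9* sub-cluster of the library labelled Tbx1neo2/neo2 had the largest mesenchymal share with *Pdgfrb* only, 32.9%.

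To set the members against all genes, a gene was counted as higher or lower where its ratio, relative to the median gene, was past 1.5-fold after 0.5 UMI had been added to each count, among genes with at least 30 UMIs over the 2 libraries compared. In epithelial cells of the library labelled Tbx1neo2/neo2, 1 of 6 members was higher (*Pdgfra*) and 1 lower (*Pdgfa*), beside 17.3% and 21.6% of all 14037 genes. In the Foxn11089/1089 library 2 were higher (*Pdgfc* and *Pdgfra*) and 3 lower (*Pdgfa*, *Pdgfb* and *Pdgfd*), beside 22.4% and 22.7% of all genes. In mesenchymal cells 1 of 5 counted members was higher (*Pdgfc*) and 1 lower (*Pdgfa*) in the library labelled Tbx1neo2/neo2, beside 18.3% and 21.5%. None was higher and 3 of 5 (*Pdgfa*, *Pdgfd* and *Pdgfrb*) were lower in the Foxn11089/1089 library, beside 11.9% and 15.6%. Of these *Pdgfd* was at the threshold, with a fold of 0.668 that fell short of it without the added 0.5 UMI. Each count rests on 6 genes or fewer and was not tested against the share over all genes.

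In endothelial cells 2 of 4 counted members were higher and none lower in each of the other libraries, beside 25% and 23.9% of all genes in the library labelled Tbx1neo2/neo2 and 19.7% and 18.7% in the Foxn11089/1089 library. Those were *Pdgfd* and *Pdgfra* in the first and both receptors in the second. *Pdgfra* had 0, 34 and 64 UMIs in endothelial cells and *Pdgfrb* 1, 18 and 31, and the mesenchymal markers there summed to 32.0, 313 and 391 CPM (4, 9 and 9 of 9 detected), with 29.9%, 8.81% and 36.5% likely doublets. Their part in the receptor levels was not tested. In mural cells 2 of 5 were higher (*Pdgfc* and *Pdgfrb*) and 2 lower (*Pdgfra* and *Pdgfb*) in the library labelled Tbx1neo2/neo2, beside 28.5% and 25.7%, and none of 3 was past the fold in the Foxn11089/1089 library, beside 22.2% and 19.4%. The mural *Pdgfb* rested on 1 control UMI and was at -0.32 (-2.90 to 5.03), within 1.5-fold, without the added 0.5 UMI. With 67 and 17 control cells, counting error alone can take a gene past 1.5-fold in endothelial and mural cells. In hematopoietic cells 3 of 4 were higher (*Pdgfb* and both receptors) and 1 lower (*Pdgfa*) in the library labelled Tbx1neo2/neo2, beside 15.2% and 19.7%. The Foxn11089/1089 library had 4 of 5 higher and *Pdgfrb* lower, beside 22.2% and 19.8%. In that class mesenchymal markers summed to 101, 205 and 449 CPM (9 of 9 detected in each), parathyroid markers to 7.91, 9.34 and 419 CPM, and likely doublets made up 7.18%, 6.76% and 20.9% of cells, and their part was not tested.

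**Figure D5:**
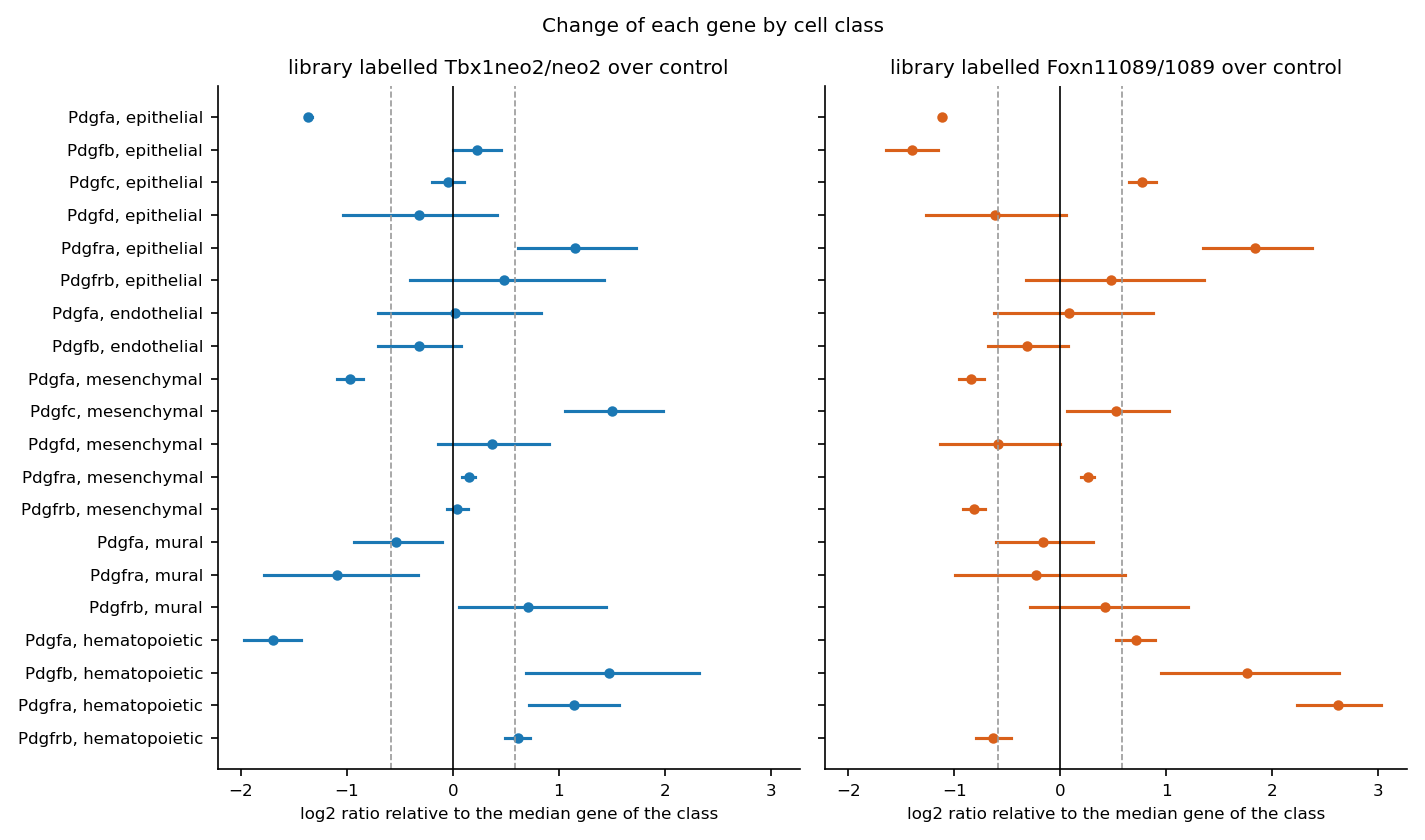
Log2 ratio to control relative to the median gene of the class (x axis) for each member and class (y axis) with at least 10 control UMIs and 30 UMIs in the 2 libraries, with points for the ratio, bars for the 95% interval and dashed lines at 1.5-fold. *Pdgfa* in epithelial cells lay below the lower line in both panels, at -1.36 and -1.11.

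The wider pathway was taken as 45 genes. They were 10 that process or bind the ligands outside the cell, 20 adaptors and enzymes that dock on the receptors, 6 negative regulators and 9 early response genes. In mesenchymal cells, which carry the receptors, 3 of 43 counted genes were higher and 13 lower in the library labelled Tbx1neo2/neo2, with a median log2 ratio of -0.15 relative to all genes, beside 18.3% and 21.5% of all genes. The Foxn11089/1089 library had 1 higher and 10 lower, with a median of -0.23, beside 11.9% and 15.6%. Without centring on the median gene the split was 15 higher and 8 lower, beside 39.1% and 9.62% of all genes, and 6 higher and 10 lower, beside 21.9% and 9.96%. The early response genes, which growth factors induce within minutes to hours, had 0 of 9 higher and 6 lower (median -0.69) and 0 higher and 3 lower (median -0.46). In the library labelled Tbx1neo2/neo2, epithelial, endothelial, mural and hematopoietic cells had 0 of 9 higher, and 3, 5, 6 and 3 lower. Their medians were -0.51, -0.64, -0.72 and -0.11, so the hematopoietic median was the least low. Of all genes in these classes 17.3%, 25%, 28.5% and 15.2% were higher and 21.6%, 23.9%, 25.7% and 19.7% lower. What induced the early response genes in the cells was not tested. Of the 20 adaptors and enzymes 1 was higher and 5 lower, and 0 and 4, in mesenchymal cells. Of the 6 negative regulators 0 were higher and 1 lower in each library. Of 8 counted extracellular genes, 2 were higher and 1 lower, and 1 and 2.

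The mesenchymal genes at the ends were partly shared by the libraries. *Socs3*, an inhibitor of cytokine signaling, went from 4722 control UMIs to 4754 in the library labelled Tbx1neo2/neo2 and 6409 in the Foxn11089/1089 library, at -1.97 (-2.02 to -1.91) and -1.54 (-1.59 to -1.48) relative to the median gene. *Ier2*, an immediate early gene, was at -1.80 and the adaptor *Crkl* at -1.75 in the library labelled Tbx1neo2/neo2. *Nck2*, another adaptor, was at -1.87 and *Furin*, a protease that cleaves PDGF precursors, at -1.61 in the Foxn11089/1089 library. At the upper end, *Pcsk6*, a protease of the family of *Furin*, was at 1.75 in the library labelled Tbx1neo2/neo2, from 25 to 337 UMIs. *Sparc*, a matrix protein that binds PDGF-B, was at 0.87 and 0.52, and the adaptor *Crk* at 0.65 and 0.58. *Plat*, the protease that activates PDGF-C, was at 0.87 in the Foxn11089/1089 library, from 721 to 5195 UMIs.

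In epithelial cells 9 of 45 genes were higher and 9 lower in the library labelled Tbx1neo2/neo2 (median -0.02), beside 17.3% and 21.6% of all genes. In the Foxn11089/1089 library 13 were higher and 10 lower (median 0.06), beside 22.4% and 22.7%. Without centring these were 18 and 5, beside 39.9% and 9.65%, and 19 and 4, beside 35.4% and 13.7%. The extracellular genes had 5 of 10 higher in each library and 2 and 3 lower, with medians of 0.66 in both. *Plat* went from 27 control UMIs to 196 and 484, at 2.11 (1.54 to 2.77) and 2.40 (1.87 to 3.05), and *Sparc* was at 1.35 and 1.88. *Furin* was at the other end, at -1.26 (-1.42 to -1.11) and -1.61 (-1.74 to -1.47). *Crkl* at -1.56 and *Ier2* at -1.36 were low in the library labelled Tbx1neo2/neo2, where the ubiquitin ligase *Cbl* was at 1.02. *Socs3* at -1.48 and *Nck2* at -0.98 were low in the Foxn11089/1089 library, and *Nrp1*, a co-receptor, was at 1.59. The adaptors and enzymes had 3 higher and 3 lower of 20, and 4 and 2. The negative regulators had 1 and 1, and 1 and 2, of 6, and the early response genes 0 and 3, and 3 and 3, of 9.

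In endothelial cells 11 of 40 pathway genes were higher and 11 lower in the library labelled Tbx1neo2/neo2, beside 25% and 23.9% of all genes, and 11 of 41 and 6 in the Foxn11089/1089 library, beside 19.7% and 18.7%. Without centring these were 17 and 7, beside 41.1% and 11.4%, and 16 and 5, beside 30.3% and 11.3%. In mural cells 6 of 41 were higher and 12 lower, beside 28.5% and 25.7%, and 5 of 23 and 9, beside 22.2% and 19.4%. Without centring the mural counts were 14 and 8, beside 37% and 17.2%, and 7 and 7, beside 31.2% and 12.5%. In hematopoietic cells 8 of 41 were higher and 8 lower, beside 15.2% and 19.7%, and 15 of 42 and 5, beside 22.2% and 19.8%. Without centring the hematopoietic counts were 18 and 4, beside 37.5% and 8.38%, and 22 and 3, beside 36.1% and 10.3%. None of these counts was tested against the share over all genes. *Ier2* was among the 3 lowest in endothelial and mural cells of both other libraries, between -1.78 and -1.15, and *Furin* was among them in the endothelial and hematopoietic cells of the Foxn11089/1089 library, at -2.92 and -1.76. The hematopoietic *Furin* ratio rested on 764 control UMIs against 177. *Egr1*, an early response gene, was at 1.90 in the hematopoietic cells of the Foxn11089/1089 library and at -0.55 in its mural cells.

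Over the 27 sums of 9 classes by 3 libraries, which share cells of the same embryos and whose small classes are shallow, some genes followed each member closely in log2(CPM + 1). For *Pdgfra* these were *Osr1* (Pearson's r = 0.96), *Creb3l1* (0.95) and *Cd248* (0.95), and for *Pdgfrb* *Ccl2* (0.83), *Angptl4* (0.81) and *Lsp1* (0.80). For *Pdgfa* they were *Fjx1* (0.90), *Dstn* (0.88) and *Ift43* (0.88), and for *Pdgfc* *Tnfrsf19* (0.92), *Bbs1* (0.90) and *Sobp* (0.90). For *Pdgfb* they were *Eogt* (0.84), *Cav2* (0.82) and *Pald1* (0.81), and for *Pdgfd* *Nxpe4* (0.89) and *Fam149a* (0.83). These values describe the 27 sums and carry no test.

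On GRCm38 with the GENCODE vM21 annotation, *Pdgfa* (ENSMUSG00000025856) lies on chromosome 5 from 138976014 to 138997370 on the minus strand and *Pdgfra* (ENSMUSG00000029231) on the same chromosome from 75152292 to 75198215 on the plus strand. *Pdgfb* (ENSMUSG00000000489) lies on chromosome 15 from 79995874 to 80014977, *Pdgfc* (ENSMUSG00000028019) on chromosome 3 from 81036416 to 81214040 and *Pdgfd* (ENSMUSG00000032006) on chromosome 9 from 6168584 to 6378850. *Pdgfrb* (ENSMUSG00000024620) lies on chromosome 18 from 61045150 to 61085061. All 6 are protein-coding genes.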

How the data were processed

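Raw UMI counts per gene and cell, deposited by the authors for 3 libraries, were used as they stand. Per the labels the submitters used Cell Ranger 3.0.0 with mm10 and Seurat. Barcodes with at least 200 genes and at most 20% mitochondrial UMIs were kept, and likely doublets, the barcodes with the highest Scrublet scores at 0.8% per 1000 barcodes (scanpy 1.11.5), stayed in. The libraries were integrated and clustered with Seurat 5.3.0 (R 4.3.3; 2000 variable genes without the PDGF pathway, 30 components, resolution 0.3 for classes and 0.8 for sub-clusters and for mural, muscle and cartilage cells). A class needed 3 markers, each in at least 10% of a cluster's cells and either at 25% of the highest cluster's level or 2-fold over all other cells (10 CPM added). This criterion was chosen after the clusters had been seen, as the last of 4 tried. The first, 2-fold over all other cells alone, left epithelial clusters unnamed. The next, 2-fold over the median cluster, called many more cells mural. Use of the 25% limit alone was the third. Clusters of low depth, mostly of likely doublets or with conflicting leading genes, stayed unnamed (518, 1556 and 2044 cells).

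UMIs were summed by class and library (numpy 2.4.6, scipy 1.17.1). Ratios were centred on the median ratio of genes with at least 30 UMIs, with 0.5 UMI added where centred ratios were counted or their medians taken. No columns were left unused. Named genes were the members, the 3 highest and 3 lowest pathway genes per class and comparison with at least 100 UMIs, and the 3 best correlated genes with at least 300 UMIs, of which one is not reported here. The interval method was tested on simulated data. The members and gene lists were chosen with earlier results of these data known. Alternatives covered cell filters, doublets, clustering, UMI gates, scaling, thinning and thresholds.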

Additional observations from a re-analysis of the deposited data

Results flagged for a closer look

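For 3 genes the difference from control, relative to the median gene of the class, went opposite ways in different classes of the same library, past 1.5-fold each way and with both 95% counting intervals off 0. With 1 library per genotype the difference between classes was not tested.

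*Pdgfa* in the Foxn11089/1089 library was at a log2 ratio of 0.71 in hematopoietic cells and -1.11 in epithelial cells. In its hematopoietic cells likely doublets made up 20.9% against 7.18% in the control, and the epithelial markers summed to 264 CPM against 153 CPM. Within the sub-cluster led by *Plac8* and *Cd48*, *Pdgfa* was at 18.9 CPM in the control and 18.5 CPM in the Foxn11089/1089 library, or -0.30 (-0.57 to -0.02) relative to the median gene. In the *Gzma* and *Cd3g* sub-cluster it was at 1.03 (0.42 to 1.64), from 51 and 45 UMIs, and in the *C1qa* sub-cluster at 0.40 (-0.09 to 0.91).

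*Pdgfb* in the Foxn11089/1089 library was at 1.76 in hematopoietic cells, from 18 and 48 UMIs, and at -1.40 in epithelial cells. In the *C1qa* sub-cluster, which held 8 of those 18 and 39 of those 48 UMIs, the ratio was -0.07 (-1.19 to 1.24).

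*Pdgfra* in the library labelled Tbx1neo2/neo2 was at 1.16 in epithelial cells, from 36 and 133 UMIs, and at -1.10 in mural cells, from 18 and 357 UMIs. Before centring, the mural ratio was -0.86, with the median gene of the class at 0.24. It turned positive under 3 of the alternatives given below, which were not centred either. The mesenchymal markers of its epithelial cells summed to 106 CPM against 63.1 CPM in the control. The part of these markers and doublets in the values was not tested.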

How the results depend on the processing

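No paired analysis was possible because there was 1 library per genotype, and for the same reason no replicate could be left out. Values below are log2 ratios to control, first for the library labelled Tbx1neo2/neo2 and then for the Foxn11089/1089 library where a pair is given. Scaling, the choice of cells and the criterion for naming clusters moved the values most, and mural values with 17 control cells were the least stable. Depth limits the endothelial, mural and *Pdgfd* values. The cause of a move was not tested unless the setting itself shows it.

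*Pdgfa* in epithelial cells, -0.95 and -0.81, was -0.99 and -0.88 with UMI gates, -1.33 and -1.08 with median-of-ratios size factors, -0.90 and -0.74 without hemoglobin and mitochondrial UMIs, -0.77 and -0.78 without the parathyroid and thyroid sub-clusters and -0.76 and -0.68 under the first naming criterion. In the Foxn11089/1089 library it was -0.76 without likely doublets and -0.72 as a mean over cells. Epithelial *Pdgfc* in the library labelled Tbx1neo2/neo2 was 0.37 and fell to -0.017 with median-of-ratios scaling, and was 0.59 without those sub-clusters and 0.70 under the first criterion. In the Foxn11089/1089 library it went from 1.08 to 0.81 with those size factors and 1.36 under the first criterion. Endothelial *Pdgfb* in the Foxn11089/1089 library was 0.49 as a mean over cells.

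Mesenchymal *Pdgfra*, 0.56 and 0.46, was 0.20 and 0.28 with size factors and 0.40 and 0.31 as a mean over cells. In the library labelled Tbx1neo2/neo2 it was 0.37 with UMI gates, 0.62 from unintegrated clusters and 0.40 under the second criterion. Mesenchymal *Pdgfrb* in that library, 0.45, was 0.055 with UMI gates, 0.093 with size factors, 0.29 as a mean over cells, 0.65 from unintegrated clusters and 1.13 under the second criterion. In the Foxn11089/1089 library it was -0.79 with size factors and turned from -0.61 to 0.11 under the second criterion, which moves mesenchymal cells to the mural class. Mural *Pdgfra* in the library labelled Tbx1neo2/neo2 turned from -0.86 to 0.72 from unintegrated clusters, 0.19 with UMI gates and 0.26 under the second criterion. Mural *Pdgfrb* in the Foxn11089/1089 library went from 0.62 to -0.21 with UMI gates and -0.60 under the second criterion. The third criterion moved none of these values beyond their intervals.

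Shares of cells with a UMI follow the depth by construction. Over the control, the library labelled Tbx1neo2/neo2 and the Foxn11089/1089 library, mesenchymal *Pdgfra* was 18.9%, 22.8% and 23.4% at 1000 UMIs, 54.5%, 64.8% and 66.9% at 5000 UMIs and 73.6%, 89.1% and 89.2% unthinned. Mesenchymal *Pdgfrb* was 7.66%, 9.01% and 5.42% at 1000 UMIs, 28.8%, 33.3% and 19.8% at 5000 UMIs and 45.2%, 68.4% and 45.0% unthinned. Mural *Pdgfra* in the library labelled Tbx1neo2/neo2 and the Foxn11089/1089 library was 4.10% and 2.44% at 1000 UMIs, 21.6% and 41.5% at 5000 UMIs, 60.5% and 70.7% unthinned and 21.9% and 33.6% in the gate on *Rgs5* and *Acta2*. Mural *Pdgfrb* was 16.4% in the library labelled Tbx1neo2/neo2 at 1000 UMIs, 56.2% there and 56.1% in the Foxn11089/1089 library at 5000 UMIs, and 70.6%, 94.4% and 90.2% over the 3 libraries unthinned. At 5000 UMIs, mesenchymal cells with *Pdgfra* only were 40.7%, 44.4% and 53.8%, with both 13.8%, 20.4% and 13.1%, and with *Pdgfrb* only 15% (control) and 12.9% (library labelled Tbx1neo2/neo2).

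Counts of pathway genes changed with the threshold, as fewer or more genes are counted by construction. The share over all genes was taken only at 1.5-fold and at least 30 UMIs. The counts at 2-fold or at other UMI minimums therefore cannot be set against all genes and show only this dependence. Without centring they were 18 higher and 5 lower in epithelial cells of the library labelled Tbx1neo2/neo2 and 4 lower in the Foxn11089/1089 library, 17 and 7 in endothelial cells of the former, 15 and 8 in mesenchymal cells and 6 higher in the latter, 14 higher in mural cells, and 18 and 4 in hematopoietic cells and 3 lower in the latter. At 2-fold they were 4 higher and 5 lower, and 5 and 3, in epithelial cells, 7 and 7, and 7 higher, in endothelial cells, 1 and 8, and 0 higher, in mesenchymal cells, 3 and 6, and 2 and 5, in mural cells, and 2 and 4, and 3 lower, in hematopoietic cells. With at least 100 UMIs per gene, the Foxn11089/1089 library had 7 higher in endothelial cells and 2 higher and 4 lower in mural cells. With at least 10 UMIs it had 2 higher in mesenchymal cells and 8 higher and 18 lower in mural cells.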

Other observations

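*Pdgfa* was also counted in classes with few cells. In skeletal muscle-like cells it was at 213 CPM in the control (9 UMIs in 6 cells), 345 CPM in the library labelled Tbx1neo2/neo2 (324 to 366, 1054 UMIs in 91 cells) and 148 CPM in the Foxn11089/1089 library (115 to 187, 68 UMIs in 76 cells), and 50%, 1.10% and 52.6% of these cells were likely doublets. Muscle-like cells of the library labelled Tbx1neo2/neo2 also had 60.9 CPM of *Pdgfc* and 15.7 CPM of *Pdgfb*. In neural-like cells *Pdgfa* was at 80.5, 89.0 and 93.5 CPM from 11, 195 and 25 UMIs, and the intervals overlapped. In cartilage-like cells it was at 171 CPM (117 to 240), 22.4 CPM (16.4 to 29.8) and 118 CPM (97.8 to 141), with likely doublets at 47.1%, 0.962% and 18.4% of the cells.

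The cells left unnamed had median depths of 809, 882.5 and 1534.5 UMIs. Their *Pdgfa* was at 354, 150 and 169 CPM and their *Pdgfra* at 64.6, 55.3 and 79.9 CPM.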
